A study of Oryza sativa with 8 samples.

Results

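A set of 117 rice loci fell to under 1/8 of their untreated level in seedlings after 3 h in polyethylene glycol (PEG). A locus belonged to the set if it had at least 1 FPKM (fragments scaled to locus length and library size) in all 3 untreated wild-type libraries and if its highest value in the 5 PEG libraries stayed under 1/8 of its lowest untreated value. Of 34119 loci in the table, 19039 reached 1 FPKM in all untreated libraries, and the 117 were 0.615% of these. The members were chosen by the PEG and untreated values themselves, and the difference between these is therefore given as a description, with no test. The members include both silicon transporter genes of the root, LSI1 and LSI2, the expansin genes EXPA2, EXPA17 and EXPB3, and the cytokinin response regulator genes RR1 and RR10.

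RNA was sequenced from rice seedlings in 3 groups. The group 708RNAi_PEG (n = 3) held 14-day-old seedlings of the SDG708 knockdown line 708Ri-1-1 kept for 3 h in 20% PEG8000, WT_PEG (n = 2) held wild-type seedlings, called NIP in the series, of the same age after the same treatment, and WT_control (n = 3) held untreated wild-type seedlings. The knockdown group is a single RNAi line, no untreated RNAi seedlings were analysed here, and no value of SDG708 itself was analysed here. Seedlings had grown for 7 days on solid and for 7 days in liquid medium, and no mock transfer is given for the untreated ones.

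PEG of high molecular weight stays outside the cells and draws water from the root, and thus imitates drying soil. Growth of rice roots and leaves slows early in water deficit, and wall-loosening expansins, nutrient transporters and cytokinin signalling belong to the functions of growing and absorbing tissue. Silicon enters rice through the channel LSI1 on the outer side of root cells and leaves towards the vessels through the efflux carrier LSI2. Type-A response regulators such as RR1 and RR10 are induced by cytokinin and dampen its signal.

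Recovered reads per library numbered 30796702 to 49674478. The libraries were scaled by the authors to denominators of which the reads made up 101.3% to 103.3% in 708RNAi_PEG, 97.3% to 98.3% in WT_PEG and 86.9% to 91.2% in WT_control. Scaling to total reads shifted the median log2 ratio to WT_control of the 19039 loci by -0.21 in 708RNAi_PEG and by -0.14 in WT_PEG. WT_control replicate 3 stood apart from the others, with a mean chi-square per locus of 16.6 against replicate 1 and 14.6 against replicate 2, while replicates 1 and 2 differed by 2.22. To a lesser degree 708RNAi_PEG replicate 2 did so in its group, with 7.98 against replicate 1 and 7.28 against replicate 3. Replicates 1 and 3 of 708RNAi_PEG differed by 4.15. Without WT_control replicate 3, 122 loci met the rule; leaving out a library can only add loci.

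Under PEG most members had a mean below 1 FPKM, while a few kept several FPKM. The mean level of a member had a median of 0.263 FPKM in 708RNAi_PEG and 0.267 FPKM in WT_PEG, against 4.83 FPKM in WT_control. The ranges were 0 to 12.3 FPKM in 708RNAi_PEG, 0.0357 to 12.3 FPKM in WT_PEG and 1.22 to 136.9 FPKM in WT_control. Means under 1 FPKM were reached by 94 members in 708RNAi_PEG and by 92 in WT_PEG, and means under 0.1 FPKM by 27 and 17 members.

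The median ratio of mean FPKM to WT_control was 0.0565 in 708RNAi_PEG and 0.0659 in WT_PEG. Over all 19039 loci the same medians were 0.964 and 0.981. A fall of at least 16-fold was seen for 65 members in 708RNAi_PEG, leaving aside the 2 without reads, and for 53 in WT_PEG, and one of at least 32-fold for 28 and 17. Summed over all members, the level was 99.1, 93.0 and 92.1 FPKM in the 708RNAi_PEG libraries, 102.7 and 109.9 FPKM in the WT_PEG libraries, and 1510, 1488 and 1584 FPKM in the WT_control libraries. The sums within each group lay close together, and those of the PEG libraries lay far below those of the untreated ones.

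**Figure D1:**
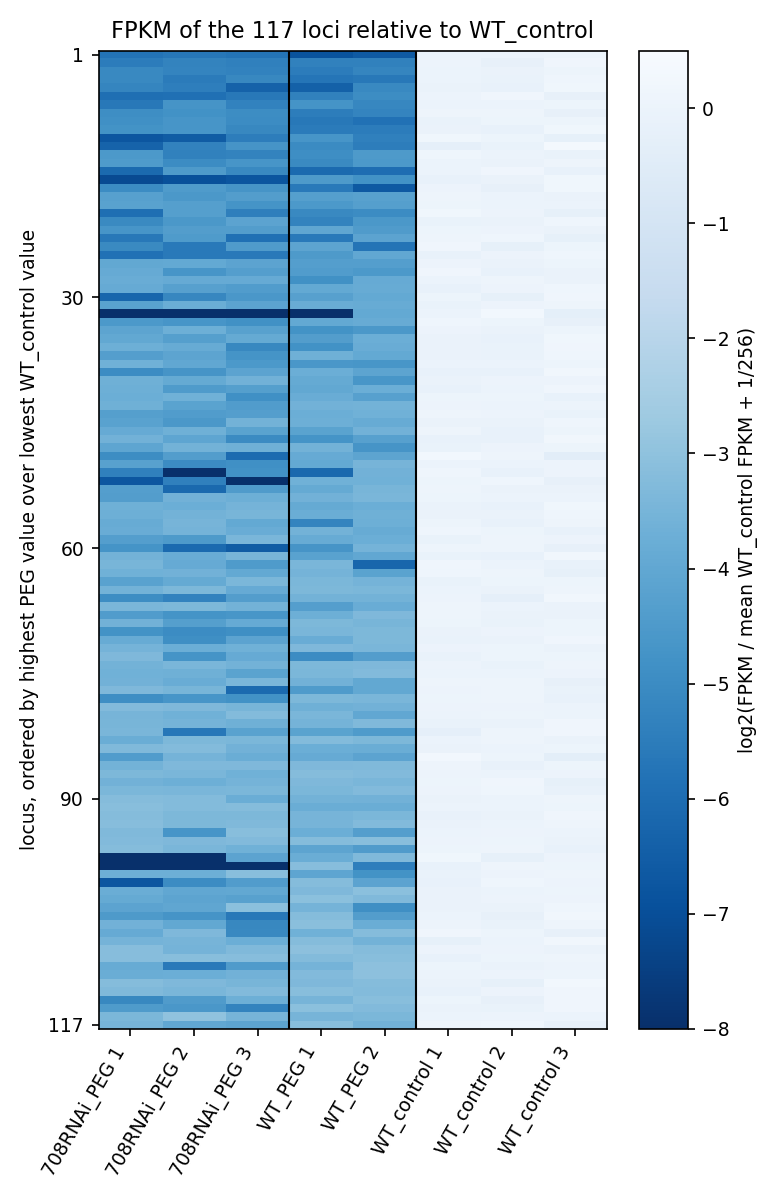
FPKM of each of the 117 loci (rows) in each of the 8 libraries (columns), as log2 of its ratio to the locus's mean WT_control FPKM with 1/256 added; darker blue is lower. Every PEG column is dark over its whole length because the rule chose it so, and the rows are ordered by the ratio on which the rule acted.

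The read numbers behind these levels were small. A member had a median of 21 reads in a PEG library, with a range of 0 to 1127, and a median of 432 reads in an untreated library, with a range of 31 to 9447. At least 1 PEG library without a read was found for 5 members. LOC_Os08g43860 and LOC_Os08g43920 had no read in any 708RNAi_PEG library, and a count of 0 leaves room for up to 3 reads per library. At this depth the remaining level of the lowest members could not be told from silence.

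The untreated level of the members had a median of 4.83 FPKM, against 5.28 FPKM over the 19039 loci. An untreated mean of at least 2 FPKM was found for 80.3% of the members against 84.9% of these loci, one of at least 10 FPKM for 32.5% against 29.3%, and one of at least 50 FPKM for 5.13% against 5.43%. The members' loci were shorter, with a median length of 1696 bp against 3224 bp, and ran from 270 to 7103 bp. These lengths were recovered from the FPKM steps and mostly include introns, so FPKM compared between loci depends on intron length as well. The untreated libraries varied little within a member, with a median coefficient of variation of 6.87% against 6.43% over the 19039 loci.

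**Figure D2:**
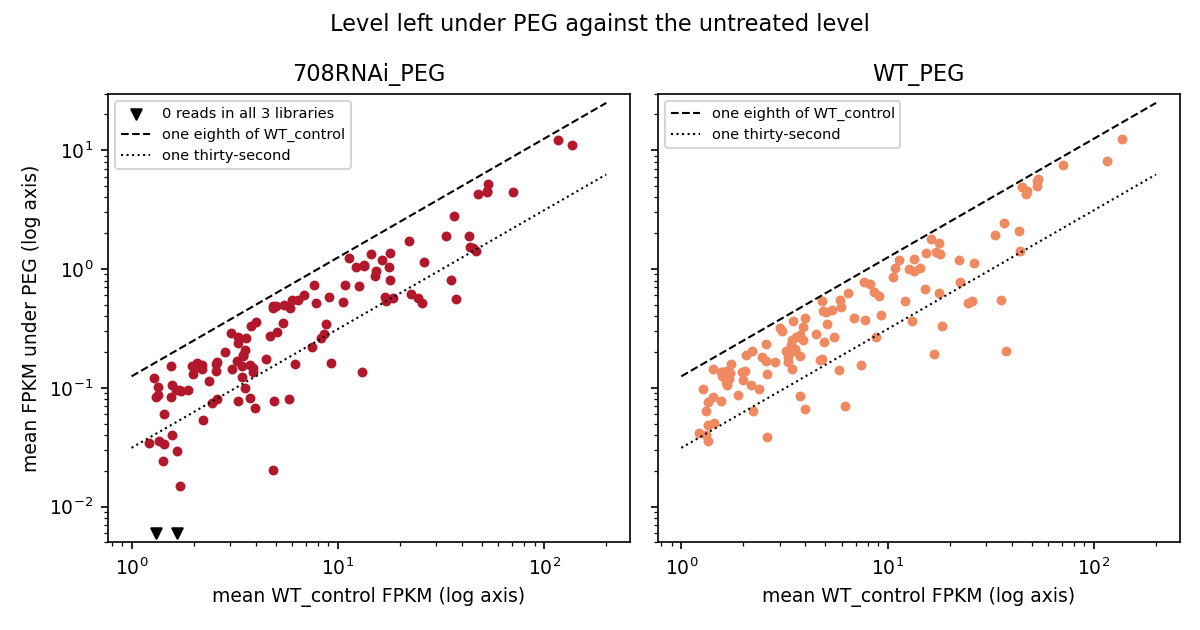
Mean FPKM under PEG (vertical, log axis) against mean FPKM in WT_control (horizontal, log axis) for the 117 loci, in 708RNAi_PEG on the left and WT_PEG on the right. All points lie under the dashed line at 1/8 by the rule; 2 loci without reads in 708RNAi_PEG are drawn as triangles at the bottom of the left panel.

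LSI1 (LOC_Os02g51110), the silicon influx channel, had 5.37, 5.05 and 5.30 FPKM in 708RNAi_PEG, 5.67 and 5.86 FPKM in WT_PEG, and 54.3, 54.9 and 51.5 FPKM in WT_control. LSI2 (LOC_Os03g01700), the efflux carrier that passes silicon on towards the vessels, had 4.36, 4.26 and 4.28 FPKM in 708RNAi_PEG, 4.36 and 4.76 FPKM in WT_PEG, and 47.7, 51.6 and 43.6 FPKM in WT_control. The pair thus had like FPKM values in every group, although FPKM compared between loci depends on intron length as well. In both, the PEG libraries lay well below the untreated ones. LSI1 was 10.2-fold lower in 708RNAi_PEG and 9.29-fold lower in WT_PEG than in WT_control, and LSI2 was 11.1-fold and 10.4-fold lower.

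The list of silicon and boron transport genes held 4 loci, all above 1 FPKM in the untreated libraries, of which these 2 were members. The median ratio of the list to WT_control was 0.168 in 708RNAi_PEG and 0.201 in WT_PEG. LSI6, a related silicon channel that unloads silicon in the shoot, was no member, with 5.07, 5.25 and 5.06 FPKM in 708RNAi_PEG, 6.26 and 6.43 FPKM in WT_PEG, and 21.7, 21.2 and 21.9 FPKM in WT_control.

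LSI1 and LSI2 also served as root markers, together with LOC_Os02g44310. The summed level of these 3 loci was 50.1 to 53.8 FPKM in 708RNAi_PEG, 63.5 to 64.3 FPKM in WT_PEG and 422 to 455 FPKM in WT_control, and none of them was at 0 in any library. LOC_Os02g44310, the marker that was not a member, had 44.1, 40.8 and 41.1 FPKM in 708RNAi_PEG, 54.3 and 52.9 FPKM in WT_PEG, and 320, 321 and 360 FPKM in WT_control. In bulk RNA of seedlings, fewer cells of a type and less RNA per cell cannot be told apart. The 10 leaf markers summed to 9412 to 9898 FPKM in 708RNAi_PEG, 12822 to 13755 FPKM in WT_PEG and 23730 to 27441 FPKM in WT_control. Their sum was thus lower under PEG too, by a smaller factor than the single locus LOC_Os02g44310. LSI1 and LSI2 were chosen by the rule for their deep fall. The summed root markers can therefore not be set against the leaf markers. The 4 reference genes, a list of genes often used to scale expression, summed to 382 to 401 FPKM in 708RNAi_PEG, 379 to 383 FPKM in WT_PEG and 629 to 694 FPKM in WT_control. Their median ratio to WT_control was 0.709 in 708RNAi_PEG and 0.696 in WT_PEG, and 1 of the 4 was under 0.5 in each. The part of tissue make-up in the members' levels was not tested.

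Expansins loosen the cell wall during growth, and 3 of the 9 expansin genes on the list were members. EXPB3 (LOC_Os10g40720), a beta-expansin, had 12.7, 11.9 and 12.2 FPKM in 708RNAi_PEG, 7.99 and 8.15 FPKM in WT_PEG, and 114, 114 and 120 FPKM in WT_control. EXPA2 (LOC_Os01g60770), an alpha-expansin, had 4.93, 4.15 and 4.28 FPKM in 708RNAi_PEG, 6.81 and 8.11 FPKM in WT_PEG, and 69.1, 70.3 and 73.4 FPKM in WT_control. The 2 genes were among the 10 most abundant members before PEG, and the order of the genotypes under PEG was opposite in them.

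EXPA17 (LOC_Os06g01920), an alpha-expansin known in rice for root hair growth, was the weakest of the named members, with 0.165, 0.242 and 0.0656 FPKM in 708RNAi_PEG, 0.197 and 0.271 FPKM in WT_PEG, and 2.83, 2.63 and 2.24 FPKM in WT_control. It rested on 3 to 9 reads per PEG library, the PEG groups overlapped, and its recovered length of 950 bp differed from the reference span of 1289 bp. EXPA4 stayed just outside the set, since its highest PEG value was 0.129 of its lowest untreated value.

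The whole list of expansins and cellulose synthases held 12 loci above 1 FPKM in the untreated libraries. Its median ratio to WT_control was 0.260 in 708RNAi_PEG and 0.436 in WT_PEG, and 8 and 6 of the 12 loci had ratios under 0.5. EXPB2, EXPB4 and EXPB6, which lie beside EXPB3 on chromosome 10, were no members. EXPB4 had 26.0, 25.2 and 27.1 FPKM in 708RNAi_PEG, 15.1 and 17.1 FPKM in WT_PEG, and 75.5, 74.3 and 86.0 FPKM in WT_control. These neighbours are similar copies, and the division of reads among them is uncertain.

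Among the cytokinin genes, RR10 (LOC_Os12g04500) had 0.942, 0.661 and 0.549 FPKM in 708RNAi_PEG, 0.998 and 1.02 FPKM in WT_PEG, and 12.7, 12.4 and 12.9 FPKM in WT_control. RR1 (LOC_Os04g36070) had 0.521, 0.402 and 0.475 FPKM in 708RNAi_PEG, 0.563 and 0.505 FPKM in WT_PEG, and 4.91, 4.91 and 4.66 FPKM in WT_control. In both, every PEG library lay far below every untreated one, and the untreated libraries lay close together. RR9, a near copy of RR10, lay outside the rule, with its highest PEG value at 0.145 of its lowest untreated value. Reads of RR9 and RR10 may be divided uncertainly.

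Type-A regulators did not move as one. RR2 lay further outside at 0.176, while RR4 had 9.45, 9.37 and 9.88 FPKM in 708RNAi_PEG, 7.40 and 6.75 FPKM in WT_PEG, and 11.2, 11.8 and 12.8 FPKM in WT_control. RR6 had 10.6, 8.51 and 10.5 FPKM in 708RNAi_PEG, 9.40 and 9.55 FPKM in WT_PEG, and 11.2, 11.1 and 12.6 FPKM in WT_control. Of 14 cytokinin loci, 8 could have met the rule and 2 did, and the median ratio of the 8 was 0.467 in 708RNAi_PEG and 0.379 in WT_PEG.

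**Figure D3:**
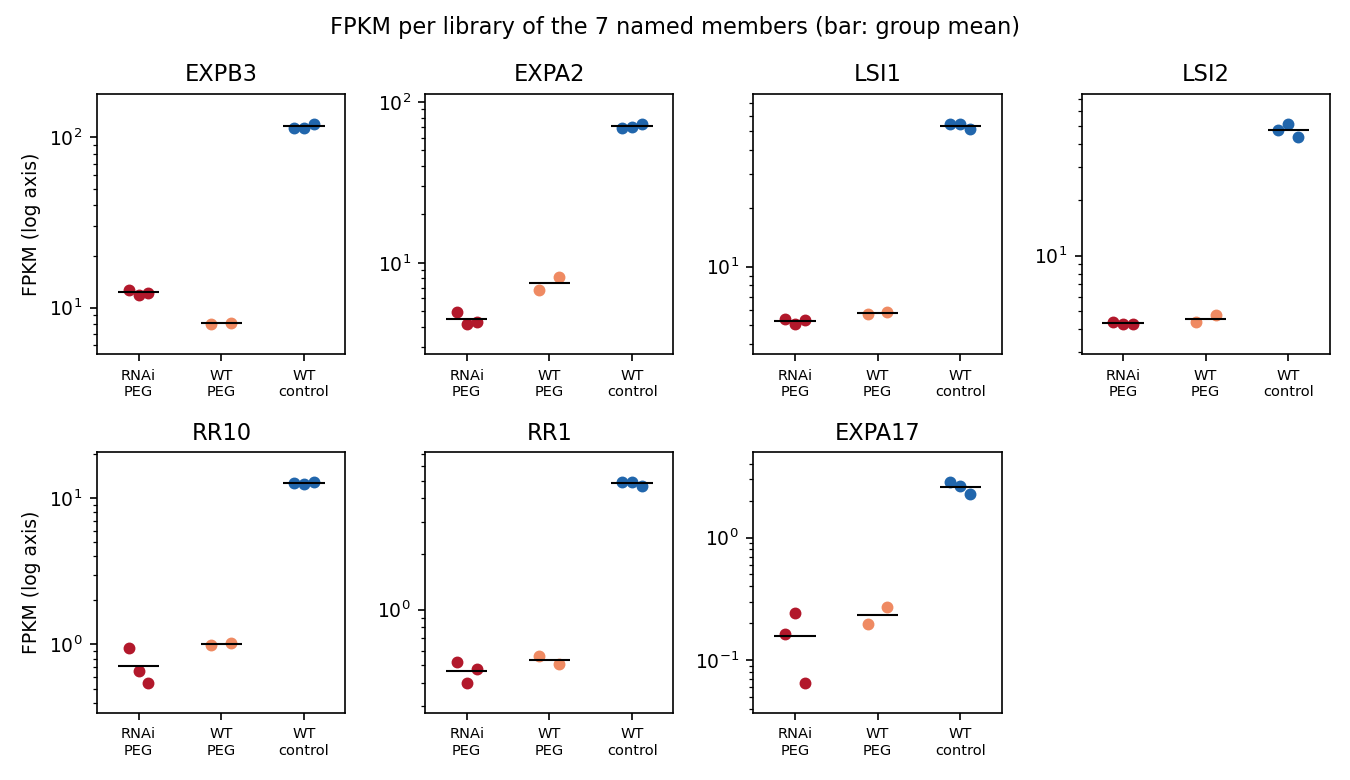
FPKM per library (points, log axis) and group mean (bar) of the 7 members with a name in the reference, for the RNAi line under PEG, wild-type under PEG and untreated wild-type. The untreated points lie far above both PEG groups in each panel; EXPB3 is higher and EXPA2 lower in the RNAi line, and the PEG groups overlap in LSI2, EXPA17 and RR1.

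A further 2 members stood on lists by locus identifier alone, without a name in the reference. LOC_Os01g36720, from the list of root nitrogen uptake, had 0.123, 0.156 and 0.242 FPKM in 708RNAi_PEG, 0.323 and 0.246 FPKM in WT_PEG, and 4.16, 4.12 and 5.23 FPKM in WT_control. LOC_Os12g24800, from the list of ABA synthesis, had 0.0651, 0.0822 and 0.0831 FPKM in 708RNAi_PEG, 0.201 and 0.286 FPKM in WT_PEG, and 4.54, 4.91 and 5.29 FPKM in WT_control. Both were below 0.5 FPKM in every PEG library.

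The lists they came from went both ways. Of 7 loci for root nitrogen uptake that could have met the rule, 5 were under 0.5 of WT_control in 708RNAi_PEG and 4 in WT_PEG, and 1 was more than 2-fold higher in WT_PEG. NAR2.1, the partner protein of high-affinity nitrate transporters, was no member. It had 0.788, 0.653 and 0.680 FPKM in 708RNAi_PEG, 0.531 and 0.624 FPKM in WT_PEG, and 4.96, 5.95 and 5.21 FPKM in WT_control. Of 5 loci for ABA synthesis, 2 were under 0.5 of WT_control in either genotype and 3 were more than 2-fold higher in WT_PEG, so LOC_Os12g24800 was the single one that met the rule.

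The aquaporins, water channels of membranes, gave no member among 14 loci and had a median ratio of 1.12 in both 708RNAi_PEG and WT_PEG. Of these 14 loci, 4 were under 0.5 of WT_control in 708RNAi_PEG and 5 in WT_PEG, and 1 was more than 2-fold higher in WT_PEG. The 6 iron loci and 5 phosphate loci that could have met the rule gave none either, nor did the 10 leaf markers, whose median ratio was 0.393 in 708RNAi_PEG and 0.485 in WT_PEG. No member came from 4 further lists tied to growth. These held 6 cell cycle, 8 auxin, 5 gibberellin and 4 root development loci that could have met the rule. The 4 such loci of potassium and sodium transport gave none either. In all, 9 members stood on the 23 lists of 183 loci, and 108 stood on none. The lists were written with earlier results of these data known, and their counts describe the set without testing it.

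**Figure D4:**
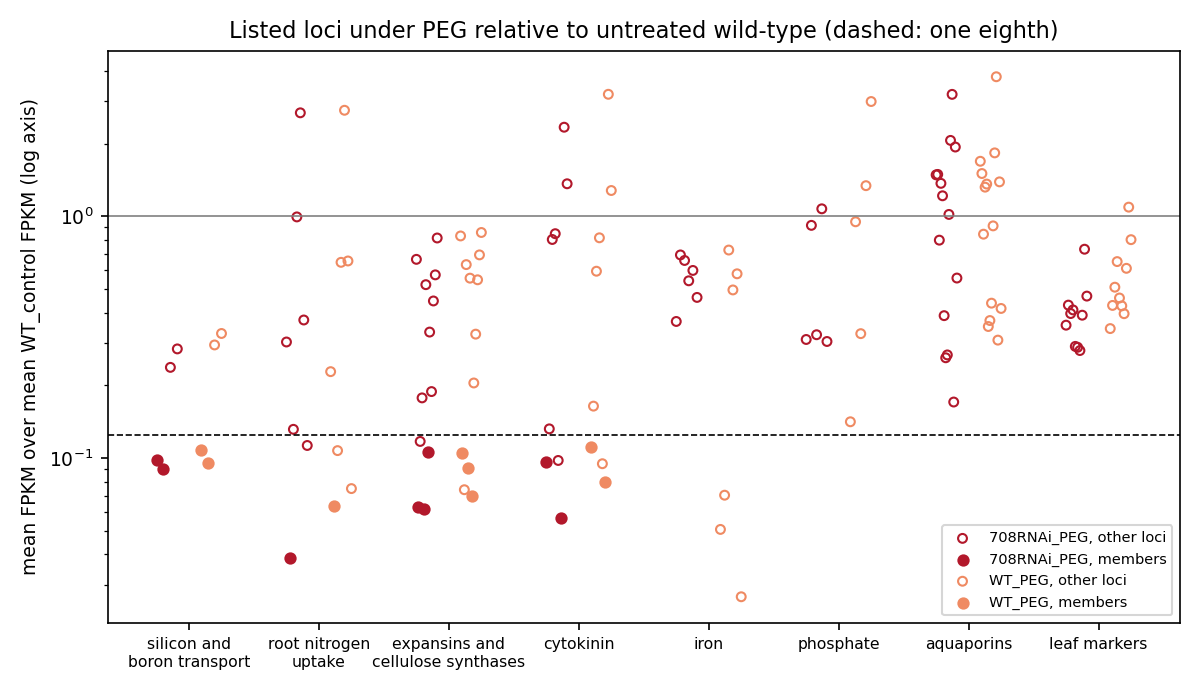
Mean FPKM relative to WT_control (log axis) of listed loci with at least 1 FPKM in all untreated libraries, in 708RNAi_PEG (dark red, left in each list) and WT_PEG (orange, right). Filled points are members and lie under the dashed line at 1/8. Silicon transport, expansins, cytokinin and root nitrogen uptake hold 2, 3, 2 and 1 of them, and the aquaporins spread around 1. The list of ABA synthesis, with 1 member and median ratios of 12.8 in 708RNAi_PEG and 8.27 in WT_PEG, is not drawn.

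The most abundant member before PEG was LOC_Os10g40530, with 11.8, 11.3 and 10.2 FPKM in 708RNAi_PEG, 11.3 and 13.4 FPKM in WT_PEG, and 128, 131 and 152 FPKM in WT_control. LOC_Os07g02200 had 4.27, 4.73 and 4.29 FPKM in 708RNAi_PEG, 4.90 and 5.06 FPKM in WT_PEG, and 53.0, 50.4 and 55.8 FPKM in WT_control. LOC_Os05g41990 had 4.93, 4.68 and 4.02 FPKM in 708RNAi_PEG, 5.60 and 5.33 FPKM in WT_PEG, and 53.0, 52.1 and 54.0 FPKM in WT_control. These abundant loci kept several FPKM under PEG, where most members had under 1. LOC_Os01g40560 fell further, with 1.81, 1.20 and 1.55 FPKM in 708RNAi_PEG, 1.13 and 1.71 FPKM in WT_PEG, and 43.5, 41.7 and 45.8 FPKM in WT_control. None of the 4 has a name in the reference.

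The smallest ratio of highest PEG to lowest untreated value, 0.0164, belonged to LOC_Os10g05950, with 0.532, 0.605 and 0.552 FPKM in 708RNAi_PEG, 0.178 and 0.233 FPKM in WT_PEG, and 37.4, 36.8 and 38.6 FPKM in WT_control. Its mean was 66.8-fold lower in 708RNAi_PEG and 183-fold lower in WT_PEG than in WT_control. No other member fell as far in WT_PEG. LOC_Os06g02530 had 0.471, 0.562 and 0.522 FPKM in 708RNAi_PEG, 0.537 and 0.545 FPKM in WT_PEG, and 26.0, 22.5 and 28.3 FPKM in WT_control. LOC_Os08g26710 had 0.627, 0.553 and 0.524 FPKM in 708RNAi_PEG, 0.449 and 0.576 FPKM in WT_PEG, and 24.4, 23.6 and 25.6 FPKM in WT_control. In both of these the libraries of the genotypes overlapped.

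LOC_Os02g13660 had 0.893, 0.635 and 0.876 FPKM in 708RNAi_PEG, 0.535 and 0.572 FPKM in WT_PEG, and 34.8, 33.1 and 38.2 FPKM in WT_control. LOC_Os08g01100 had 0.607, 0.647 and 0.454 FPKM in 708RNAi_PEG, 0.331 and 0.333 FPKM in WT_PEG, and 17.7, 16.7 and 20.9 FPKM in WT_control. The RNAi libraries lay above the wild-type PEG libraries in both, and neither difference passed the test described further on. The other 5 members with the smallest ratios had lower untreated means, from 2.22 FPKM in LOC_Os01g08820 and 2.60 FPKM in LOC_Os06g07250 to 3.97 FPKM in LOC_Os01g70970, 5.83 FPKM in LOC_Os03g25320 and 7.46 FPKM in LOC_Os09g39070. Their PEG libraries held 3 to 31 reads each.

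The limit of 1/8 cut through a continuous run of values. Just inside it were LOC_Os12g37400 at 0.1248, LOC_Os09g10340 at 0.1247 and LOC_Os04g46810 at 0.1240, and just outside were LOC_Os11g05290 at 0.1266, LOC_Os08g43870 at 0.1273 and LOC_Os07g15370 at 0.1278. A limit of 1/4 held 440 loci and one of 1/16 held 22. No gap separated members from other loci. With libraries scaled to total reads, which lowers the PEG libraries against the untreated ones, 143 loci met the rule.

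Members were found on every chromosome. The share of the loci that could have met the rule ran from 0.386% on chromosome 9, with 4 members, to 1.00% on chromosome 10, with 10 members, and chromosome 1 held the most with 18. Within 10 rows of another member lay 20 of the 117, and 6 pairs were direct neighbours in the table, none in a run longer than 2. Near copies side by side can share reads, and whether these neighbours are copies was not analysed here.

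LOC_Os01g24570 and its neighbour LOC_Os01g24600 had means of 0.0990 and 0.0602 FPKM in 708RNAi_PEG, 0.211 and 0.143 FPKM in WT_PEG, and 3.54 and 1.43 FPKM in WT_control. LOC_Os10g40460 and LOC_Os10g40470, the nearest members to the abundant LOC_Os10g40530, had 0.185 and 0.282 FPKM in 708RNAi_PEG, 0.143 and 0.643 FPKM in WT_PEG, and 3.46 and 8.57 FPKM in WT_control. LOC_Os02g39380 and LOC_Os02g39384 had 0.0772 and 0.166 FPKM in 708RNAi_PEG, 0.181 and 0.132 FPKM in WT_PEG, and 3.27 and 2.59 FPKM in WT_control. In the last 2 pairs the order of the genotypes was opposite in the neighbours. Of these 6 loci only LOC_Os10g40470 passed between the genotypes, where it was lower in 708RNAi_PEG (limma adjusted p = 0.027).

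A group on chromosome 8, named here after its values were seen, held LOC_Os08g43860, LOC_Os08g43920 and LOC_Os08g43940 as members and LOC_Os08g43870 just outside. The 3 members had 0, 0 and 0.0295 FPKM on average in 708RNAi_PEG, 0.0404, 0.106 and 0.138 FPKM in WT_PEG, and 1.32, 1.66 and 1.65 FPKM in WT_control. LOC_Os08g43870 had 0, 0.0467 and 0 FPKM in 708RNAi_PEG, 0.152 and 0.0811 FPKM in WT_PEG, and 1.20, 1.19 and 1.46 FPKM in WT_control. All 4 were low in every PEG library. The 2 members without reads in 708RNAi_PEG had 0 and 2 reads, and 6 and 1 reads, in the WT_PEG libraries, and neither passed the test between genotypes.

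The second comparison asked whether the RNAi line differed from wild-type in what was left of these transcripts under PEG. The rule had used all 5 PEG values and left out any locus that either genotype held above the limit, 103 low in 708RNAi_PEG alone and 58 low in WT_PEG alone, and so capped the difference between the genotypes. It also took the highest of 3 libraries in 708RNAi_PEG and of 2 in WT_PEG. The counts of members below are for these reasons a description beside the background, and nothing is read from their distance to it. Of the 117 members, 10 were higher and 15 lower in 708RNAi_PEG than in WT_PEG, together 21.4% (limma on log2(FPKM + 1), two-sided, Benjamini-Hochberg adjusted p under 0.05 over 20943 loci). Over all tested loci 37.6% passed, 21.2% higher and 16.4% lower. All 117 members passed the filter of at least 1 FPKM in at least 2 libraries through WT_control, where the rule had put them at that level, and most lay below it under PEG. Among the members with a mean PEG level under 1 FPKM, 14 of 94 passed, or 14.9%, with 7 in each direction, against 27.9% of all tested loci at that level, 10.3% higher and 17.6% lower. The limma-voom test of the recovered reads called 9 members higher and 17 lower, against 23.9% and 15.5% of all tested loci.

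The libraries of the genotypes did not overlap in 58 members, or 49.6%, of which 19 were higher and 39 lower in 708RNAi_PEG. Over all tested loci that share was 62.9%, with 34.0% higher and 28.9% lower. The median log2 fold change was -0.03 for the members and 0.01 for all tested loci, and 47 members lay above 0 and 70 below. With libraries scaled to total reads 6 members were higher and 19 lower, and of the 25 called members 2 higher and 7 lower ones passed under every one of 15 alternative settings.

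On the log2(FPKM + 1) scale EXPB3 had the largest rise among the called members, although 6 others had larger ratios of mean FPKM. It stood at 12.3 ± 0.428 FPKM in 708RNAi_PEG (SD, n = 3) and 8.07 ± 0.113 FPKM in WT_PEG (SD, n = 2), a ratio of 1.52. Its log2 fold change was 0.55 ± 0.05 (SE, limma adjusted p = 3.2e-05), and all RNAi libraries lay above both wild-type ones. LOC_Os10g05950, the member with the deepest fall under PEG in wild-type, averaged 0.563 ± 0.0376 FPKM in 708RNAi_PEG and 0.206 ± 0.0395 FPKM in WT_PEG. Its log2 fold change was 0.37 ± 0.05 (limma adjusted p = 0.00040), which understates its ratio of 2.74 because 1 was added to values below 1. LOC_Os10g05950 was below 1 FPKM in every PEG library and entered the test only through WT_control.

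The calls of the other 3 of the 5 largest rises were not kept under every alternative. LOC_Os04g11060 had 0.460, 0.698 and 0.588 FPKM in 708RNAi_PEG and 0.284 and 0.101 FPKM in WT_PEG, on 1 to 8 reads per library, a ratio of 3.03 with a log2 fold change of 0.41 ± 0.11 (limma adjusted p = 0.016). LOC_Os05g12280 had 0.898, 0.901 and 1.35 FPKM in 708RNAi_PEG and 0.678 and 0.406 FPKM in WT_PEG, also with 0.41 ± 0.11 (limma adjusted p = 0.016). Neither call held without WT_PEG replicate 2, where the limma adjusted p was 0.14 for each, and the first was also lost with limma-voom on recovered reads (adjusted p = 0.075). LOC_Os05g44200 had 0.964, 1.29 and 0.880 FPKM in 708RNAi_PEG and 0.585 and 0.676 FPKM in WT_PEG, and its limma adjusted p of 0.014 became 0.098 without WT_PEG replicate 1.

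LOC_Os04g46810 had the largest fall among the called members, on the log2(FPKM + 1) scale, with 1.85, 1.68 and 1.01 FPKM in 708RNAi_PEG, 5.23 and 4.50 FPKM in WT_PEG, and 43.2, 42.2 and 49.7 FPKM in WT_control. The log2 fold change between the genotypes was -1.24 ± 0.14 (SE, limma adjusted p = 0.00015), and the ratio of means was 0.311. Lower ratios were found in members that did not pass, such as LOC_Os10g05490 at 0.111 and LOC_Os05g42360 at 0.116, which were named after their values were seen. LOC_Os05g42360 had 0.0157, 0.0199 and 0.0251 FPKM in 708RNAi_PEG and 0.194 and 0.155 FPKM in WT_PEG. The test pooled the spread of all 3 groups, including the untreated libraries, where this locus ran from 4.34 to 5.52 FPKM. LOC_Os04g46820, the next neighbour of LOC_Os04g46810 and also a member, had 1 to 3 reads per PEG library and did not pass. LOC_Os02g37700 had 1.56, 1.29 and 1.40 FPKM in 708RNAi_PEG, 4.18 and 4.41 FPKM in WT_PEG, and 44.7, 47.1 and 49.0 FPKM in WT_control. Its log2 fold change was -1.13 ± 0.06 (limma adjusted p = 2.2e-06), the smallest p among the members named here. In LOC_Os04g46810 and LOC_Os02g37700 every RNAi library lay far below the wild-type ones.

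EXPA2 fell to 4.45 ± 0.419 FPKM in 708RNAi_PEG (SD, n = 3), against 7.46 ± 0.917 FPKM in WT_PEG (SD, n = 2), a log2 fold change of -0.63 ± 0.08 (limma adjusted p = 0.00029). LOC_Os05g47540 had 0.236, 0.291 and 0.266 FPKM in 708RNAi_PEG and 0.765 and 0.738 FPKM in WT_PEG, with -0.47 ± 0.07 (limma adjusted p = 0.00062). LOC_Os01g55060, the shortest member at 270 bp, had 0.482, 0.366 and 0.770 FPKM in 708RNAi_PEG and 1.39 and 1.38 FPKM in WT_PEG, on 3 to 14 reads, with -0.64 ± 0.13 (limma adjusted p = 0.0046). These calls were kept under every alternative tried, that of LOC_Os01g55060 narrowly with limma-voom on recovered reads (adjusted p = 0.049). The alternatives reused the PEG values on which the rule had acted, so a call kept under them has no independent support. LOC_Os05g47540 was below 1 FPKM in every PEG library and entered the test only through WT_control.

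**Figure D5:**
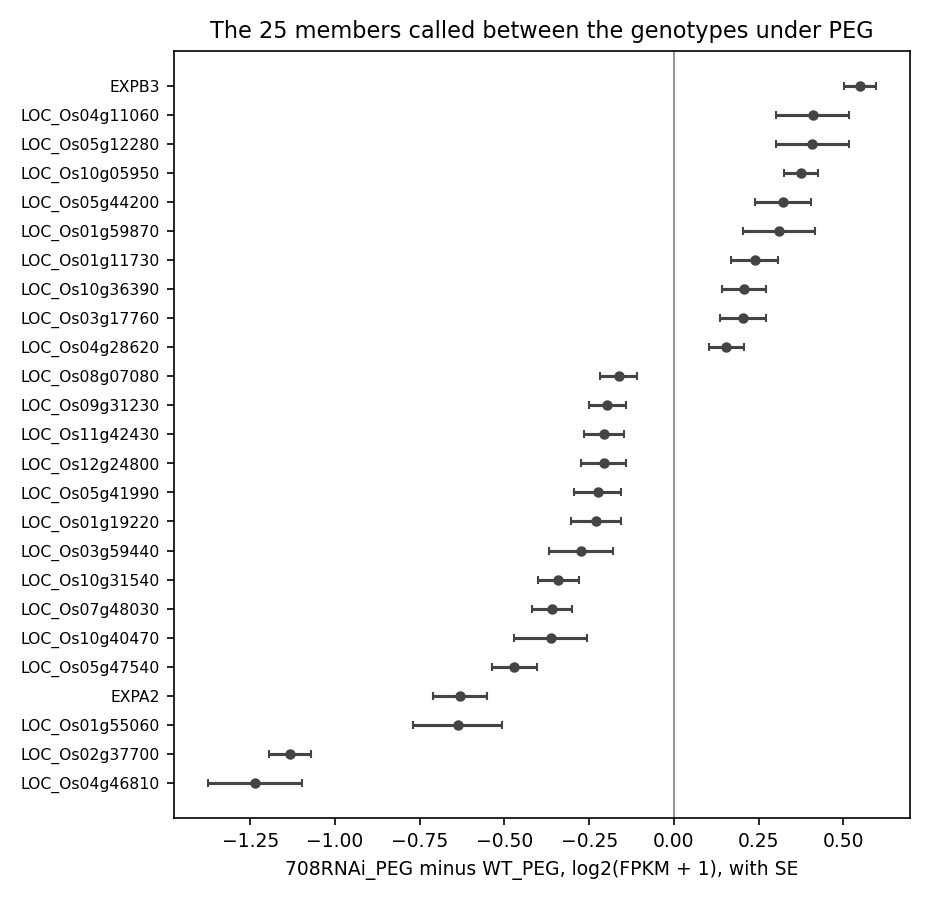
Log2 fold change of 708RNAi_PEG minus WT_PEG on the log2(FPKM + 1) scale, with its standard error, for the 25 members that passed the test. The 10 loci right of 0 are led by EXPB3 and the 15 left of 0 by LOC_Os04g46810 and LOC_Os02g37700, the only ones beyond -1.

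The silicon transporters and cytokinin regulators did not pass between the genotypes. LSI1 had a log2 fold change of -0.12 ± 0.05 (limma adjusted p = 0.087) and LSI2 of -0.07 ± 0.07 (limma adjusted p = 0.47). RR10 had -0.23 ± 0.09 (limma adjusted p = 0.059), RR1 -0.07 ± 0.06 (limma adjusted p = 0.40) and EXPA17 -0.09 ± 0.09 (limma adjusted p = 0.44). LSI1 passed without WT_control replicate 3 (limma adjusted p = 0.045) and with scaling to total reads (0.037). RR10 passed without 708RNAi_PEG replicate 1 (limma adjusted p = 0.0049) and with scaling to total reads (0.037). LOC_Os01g36720 did not pass (-0.13 ± 0.09, limma adjusted p = 0.30), and LOC_Os12g24800 did (-0.21 ± 0.07, limma adjusted p = 0.037), but not without a filter, without any 1 of the 5 PEG libraries or without WT_control replicate 2 (limma adjusted p up to 0.21).

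Markers of other tissues moved with the genotype as well. The 15 seed markers held 2022 to 3471 reads in 708RNAi_PEG, against 145 to 248 in WT_PEG and 163 to 187 in WT_control, and 8 of the 8 tested were higher in 708RNAi_PEG. Of these 15 loci 5 were at 0 in each WT_PEG library, 1 in 708RNAi_PEG replicate 2, and none in the other RNAi libraries. Of the 10 leaf markers 8 were lower in 708RNAi_PEG, and of the 3 root markers 1 was lower. Their part in the differences between the genotypes was not tested. Whether replicates were separate plants or cultures is not stated in the labels, and the p-values measure only how far these libraries spread, which can be technical in origin.

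The loci that met the rule were also counted with each genotype set alone against WT_control. Of the 19039 loci, both genotypes were under 1/8 in the 117 members, 708RNAi_PEG alone in 103 further loci and WT_PEG alone in 58. No gap lay at the limit, and the highest value was taken of 3 libraries in 708RNAi_PEG and of 2 in WT_PEG. The sets can therefore differ without a difference between the genotypes. Without untreated RNAi seedlings, genotype and PEG cannot be told apart in 708RNAi_PEG. A pair of nicotianamine synthase genes of iron uptake, chosen after their values were seen, belonged to those low in wild-type alone. NAS1 had 9.20, 9.22 and 9.91 FPKM in 708RNAi_PEG, 1.84 and 0.769 FPKM in WT_PEG, and 24.9, 25.5 and 26.6 FPKM in WT_control. NAS2 had 19.6, 17.4 and 19.1 FPKM in 708RNAi_PEG, 2.04 and 1.76 FPKM in WT_PEG, and 25.3, 26.0 and 29.7 FPKM in WT_control. The pair lie side by side, and reads may be divided uncertainly between them.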

How the data were processed

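The deposited table gives FPKM per locus and library, made by the authors; the submitters' processing notes name cutadapt, FastQC, HISAT2, featureCounts, SAMtools, deepTools and DESeq2 without roles. The sources used here name no genome build, annotation or strand setting, so overlapping loci may share reads. The authors' deposited log2 fold changes and p-values were not used. Whole reads were recovered from the FPKM steps for 34119 of 34119 rows within 0.03 reads. Intervals from such reads would cover counting error only.

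Members were found with Python 3.11.15 and pandas 2.3.3. The 20943 loci with at least 1 FPKM in at least 2 libraries entered limma 3.58.1 (R 4.3.3) on the log2(FPKM + 1) scale. All 3 groups were in one model with a variance trend, two-sided, with a Benjamini-Hochberg adjusted p under 0.05. The spread of a locus was thus estimated from the untreated libraries as well, where members were far higher. The script was tested on simulated data. Changes were simulated only in loci with far more reads than most members had under PEG, so the members' setting was not covered. Fold changes on this scale understate those of low loci. Alternatives changed the pseudocount (0.1), filter, scaling, normalization, samples in the fit, replicate block or libraries. limma-voom on recovered reads, added after seeing the data, called 8249 of 20943 loci (39.4%) and 26 members.

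Members, lists, tests and rules for naming were chosen with earlier results of these data known. Named were the 10 members highest in WT_control, the 10 with the smallest ratio of highest PEG to lowest WT_control value, the 5 largest called differences between genotypes in each direction, members on a list, the 3 loci on either side of the limit, and 3 neighbouring pairs. Symbols were printed where the reference table (assembly ASM3414082v1) holds them on the same chromosome, for 120 of 183 listed loci; 105 of these had recovered lengths within 10% of the reference gene span.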

Additional observations from a re-analysis of the deposited data

How the results depend on the processing

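Libraries left out one at a time gave 119 to 134 loci that met the rule, and a minimum of 0.5 FPKM or scaling to total reads gave 143 each; these settings can only loosen the rule, so the 117 members stay in by construction. A limit of 1/4 gave 440 loci, 1/16 gave 22, a minimum of 5 FPKM gave 54, and 708RNAi_PEG as the only treated group gave 220, against 175 with WT_PEG and 167 with group means. Between the genotypes, 10 members were higher and 15 lower; without a filter these were 6 and 9, with scaling to total reads 6 and 19, with a pseudocount of 0.1 12 and 24, and with libraries left out one at a time 4 to 12 higher and 8 to 19 lower. With the replicate number as a block they were 8 and 13, and with only the PEG libraries in the fit 9 and 13. Deviations from the group mean correlated at -0.234 to 0.361 for same-numbered libraries and at -0.403 to 0.332 for other pairs. Deviations within a group of 2 or 3 libraries sum to 0, so these correlations cannot show whether a number marks a batch. No result changed direction. The cause of the other changes was not tested. The planned edgeR and DESeq2 alternatives on recovered reads were not run, since these tests were kept for deposited counts; limma-voom took their place. Few reads under PEG limit the comparison of genotypes.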
